A study of Mus musculus with 24 samples.

Results

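The clustered histone genes are the replication-dependent copies of the linker histone H1 and the core histones H2A, H2B, H3 and H4. They were taken as every probe that is not a control and whose gene name in the array files starts with Hist1h, Hist2h, Hist3h or Hist4h. This gave 68 of 56605 probes, for 56 of 37074 gene names. By class there were 8 probes for H1, 21 for H2A, 18 for H2B, 10 for H3 and 11 for H4. The prefix places 48 probes in the Hist1 cluster, 14 in Hist2, 5 in Hist3 and 1 in Hist4. The files use 0 of the newer names for these genes, and all 68 probes were matched to a current RefSeq gene, 52 by accession and 16 by synonym.

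RNA came from pools of mouse expanded blastocysts that had been frozen, each pool hybridised to 1 one-colour Agilent array. The 24 pools carry the codes HC1, HC2, HC3, HC4, HC5 and HC6, 4 pools to each code. There were 15 embryos in a pool, or 20 in HC6, so code and pool size cannot be told apart for HC6. The series title concerns bisphenol A and activation of membrane estrogen receptors, but no label gives the strain, dose or treatment behind a code or says which is the control. Each code was therefore set against the mean of the other 5. Whether the pools of a code had different parents is not given in the labels, and a p-value here reflects only how far pools of a code varied.

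Histone proteins package DNA into nucleosomes, in which H3 and H4 form the inner tetramer, H2A and H2B join as dimers, and H1 binds the linker DNA. Cells make most histone mRNA while they replicate their DNA. These mRNAs usually have no intron and no poly(A) tail and end instead in a stem-loop bound by the protein Slbp, although some histone genes also give polyadenylated mRNA. Cleaving embryos first draw on maternal stores and then transcribe their own histone genes. The labels name the Quick Amp labelling kit, whose standard primer is oligo(dT), with a protocol adapted by the submitters. How completely mRNA without a tail was labelled was not tested.

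Many of these genes are near-identical, which limits what a probe can tell apart. The probes for 4 H2A genes cover the same 60 bases of the coding end and have the same base at 50 of 60 positions. They are shown because their signals moved almost as one. Positions are from the file headers' mouse build mm9, and capitals mark the 10 positions at which the probes differ.
Hist1h2af, chr13:23626113-23626172, plus strand: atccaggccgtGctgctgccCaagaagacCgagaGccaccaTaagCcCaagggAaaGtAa
Hist1h2ak, chr13:21845304-21845363, minus strand: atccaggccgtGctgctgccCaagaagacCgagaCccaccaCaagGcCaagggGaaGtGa
Hist1h2an, chr13:21902669-21902728, plus strand: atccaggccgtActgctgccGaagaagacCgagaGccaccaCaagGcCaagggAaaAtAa
Hist2h2aa2, chr3:96043781-96043840, minus strand: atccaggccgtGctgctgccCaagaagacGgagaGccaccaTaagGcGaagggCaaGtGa

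Overlap of at least 30 bases at 90% identity put 14 member probes into 4 groups of copies. The largest held 7 H2A probes, named Hist1h2af, Hist1h2ag, Hist1h2ah, Hist1h2ak, Hist1h2an, Hist1h2ao and Hist2h2aa2. The files themselves assign 18 of the 68 probes to 2 or more RefSeq genes. They also place Hist1h2an at chr13:21902669-21902728 and Hist1h2ao at chr13:21902695-21902754, so these names share a locus on this array. Values of such probes are uncertain as to the gene and are described below as values of the group.

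The end of the mRNA is visible in a few probes. The histone stem-loop consensus, a run of 16 bases whose arms can pair, was found in 6 of 68 member probes (8.82%) and in 7 of all 56605 probes (0.0124%). The 6 are shown with up to 5 bases on each side, and capitals mark the stem-loop match.
Hist1h2bf, chr13:23665629-23665654, minus strand: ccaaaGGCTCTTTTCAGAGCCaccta
Hist1h3a, chr13:23853756-23853779, minus strand: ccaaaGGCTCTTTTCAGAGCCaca
Hist1h3g, chr13:23627753-23627778, plus strand: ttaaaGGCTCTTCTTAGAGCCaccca
Hist1h3i, chr13:21874784-21874809, minus strand: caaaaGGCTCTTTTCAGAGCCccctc
Hist1h4m, chr13:21903993-21904018, plus strand: ctaaaGGCCCTTTTCAGGGCCatcca
Hist2h2bb, chr3:96074089-96074114, plus strand: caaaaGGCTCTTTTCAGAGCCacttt

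The polyadenylation hexamer AATAAA was found in 4 member probes (5.88%), against 9.77% of all probes. For 1 of these, Hist1h2ag, the letters run over the end of the coding sequence. Of the other 3, all of H2B genes, the files list those of Hist2h2bb and Hist3h2ba for 0 RefSeq genes. The 3 are shown with capitals on the hexamer because the results below turn on them.
Hist2h2bb, chr3:96082779-96082804, plus strand: tgtcagtttgAATAAAgacagagaaa
Hist2h2be, chr3:96027578-96027598, plus strand: gatcgAATAAAtccattcact
Hist3h2ba, chr11:58762999-58763023, plus strand: taatggtattAATAAAtttggttca

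Clustered histone genes were widely detected in the blastocyst pools. Of the 68 probes, 48 (70.6%) were well above background on all 24 arrays, against 17863 of 56605 probes (31.6%). These 48 cover 43 of the 56 gene names. The test took probes that rose well above background on 4 or more of 24 arrays, which 58 members and 27074 probes in all did. On no array were 8 members well above background. They were Hist1h2ac, Hist1h2ad, Hist1h2al, Hist2h2aa1, the Hist3h2bb-ps pseudogene and 1 probe each of Hist1h1d, Hist1h2ai and Hist2h2ac. Of these 8 probes, the files assign only that of Hist1h2ad to a current RefSeq gene. Hist1h2ac and Hist1h2ad are also listed for the Hist1h2ah probe (log2 level 10.6), and Hist2h2aa1 for the Hist2h2aa2 probe (10.05). The dim probes thus do not show that these genes were silent.

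By class, the probes well above background on all 24 arrays numbered 7 of 8 for H1, 13 of 21 for H2A, 10 of 18 for H2B, 7 of 10 for H3 and 11 of 11 for H4. Levels below are log2 of the processed signal minus the 75th percentile of that array, so that 0 is the level of that percentile. They compare pools for 1 probe and not 1 gene with another.

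Among linker histones, Hist1h1e (chr13:23713707-23713766) had a log2 level of 6.66 ± 0.22 over the 24 pools (SD). Hist1h1t, the testis-specific linker histone, had a level of 0.51 ± 0.32 and was above background in every pool. Among H2A genes, Hist2h2ac stood at 10.31 ± 0.20 and Hist2h2aa2 at 10.05 ± 0.20, and the log2 level of Hist1h2aa, a variant first described in testis, was 10.32 ± 0.21. The Hist1h2aa probe differs from that of Hist2h2ac at 4 of 58 overlapping bases, and their signals correlated at r = 0.994 over the 24 pools, so its level cannot be given to Hist1h2aa alone. Hist1h2ba, the H2B variant first described in testis, stood at 4.03 ± 0.31 and lies in no copy group.

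Among core histones of the tetramer, Hist1h3d had the smallest SD of the 48 probes, with a log2 level of 7.15 ± 0.16 and a 1.8-fold range over the 24 pools. Its probe is listed for 4 genes. Hist1h4k stood at 5.29 ± 0.20 and had the narrowest range, 1.66-fold, at a probe listed for 2 genes. Hist4h4, the lone H4 gene on chromosome 6, stood at 5.52 ± 0.23. The probes that varied most among the 48 were Hist3h2ba (SD 0.54), Hist1h2ai (SD 0.44), Hist1h2bc (SD 0.42), Hist1h3f (SD 0.39) and Hist3h2a (SD 0.38).

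**Figure D1:**
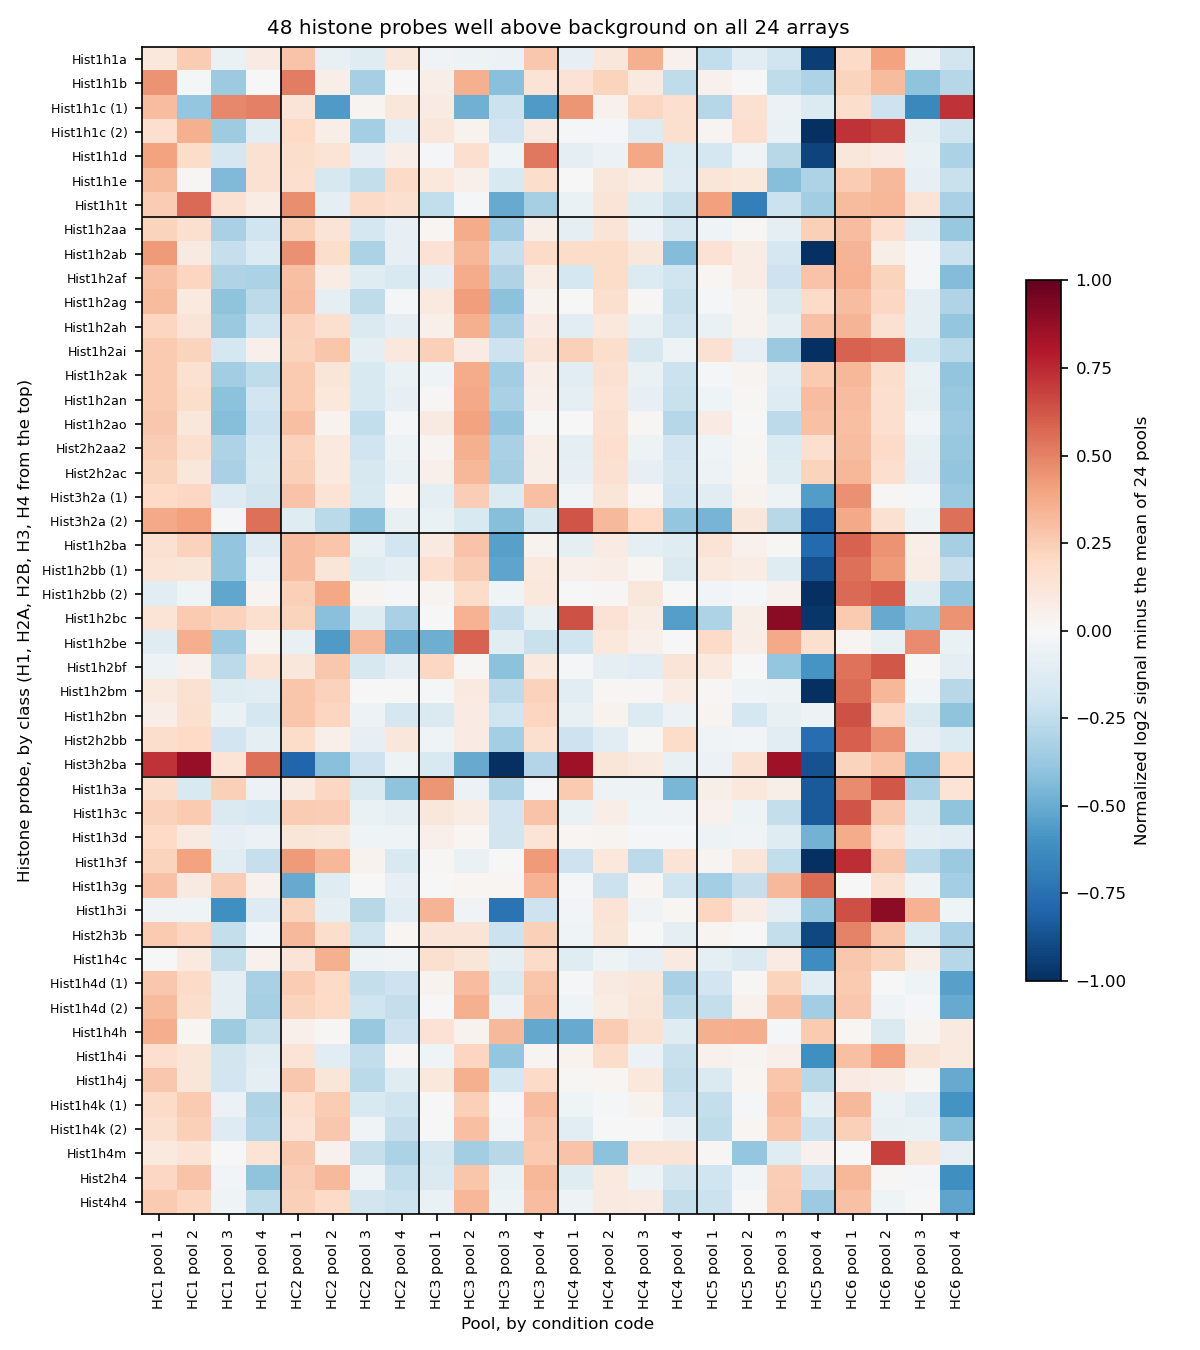
Normalized log2 signal of the 48 histone probes well above background on all 24 arrays, as the deviation from each probe's mean over 24 pools; rows are probes by class and columns are pools by code, and the colour scale is clipped at 1 either way. HC5 pool 4 is low in most H1, H2B and H3 rows and not in the near-identical H2A rows, and HC6 pools 1 and 2 are high in many rows.

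The histone probes moved together from pool to pool. The mean correlation over the 1128 pairs of the 48 probes was r = 0.417 across 24 pools, against 0.0561 over all pairs of the 17863 probes detected as widely. The points share arrays and scaling, and the value is a description. Within classes the mean r was 0.390 for H1, 0.630 for H2A, 0.441 for H2B, 0.443 for H3 and 0.501 for H4. Of the 78 H2A pairs, 36 are among the 9 probes of the H2A copy groups, with a mean r of 0.967. Copies also enter the H4 value and that of the 48 probes. Values without copies were not computed, so these means do not rank the classes by shared movement of separate genes. The 7 near-identical H2A probes had a mean r of 0.960, with a lowest pair of 0.905, and the 3 overlapping H4 probes of Hist1h4d, Hist1h4j and Hist1h4k a mean of 0.896.

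A few members did not follow the rest. The lowest mean correlation with the other 47 was that of a Hist1h1c probe (r = -0.194), followed by Hist1h3g (r = -0.0788), Hist1h4h (r = -0.0138) and Hist1h2be (r = 0.00847). Hist1h3g and Hist1h4m are stem-loop probes and were among the least alike, but the stem-loop probes of Hist1h2bf (r = 0.453), Hist1h3i (r = 0.411) and Hist2h2bb (r = 0.526) were not.

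A pool's histone score, the mean deviation of the 48 probes from their 24-pool means, summarises this shared movement. It ran from -0.41 in HC5 pool 4 to 0.35 in HC6 pool 1 on the log2 scale, with an SD of 0.18 over pools. In HC5 the other 3 pools scored between -0.034 and -0.00061, and in HC6 the other 3 scored -0.23, -0.068 and 0.23. In HC1, HC2, HC3, HC4 and HC6 the pools of a code lay on both sides of 0. The mean score was -0.12 ± 0.20 for HC5 and 0.07 ± 0.27 for HC6 (SD, n = 4 each). The other means lay between the -0.0065 ± 0.0863 of HC4 and the 0.036 ± 0.190 of HC1. The SD within a code was thus as large as most differences between codes.

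**Figure D2:**
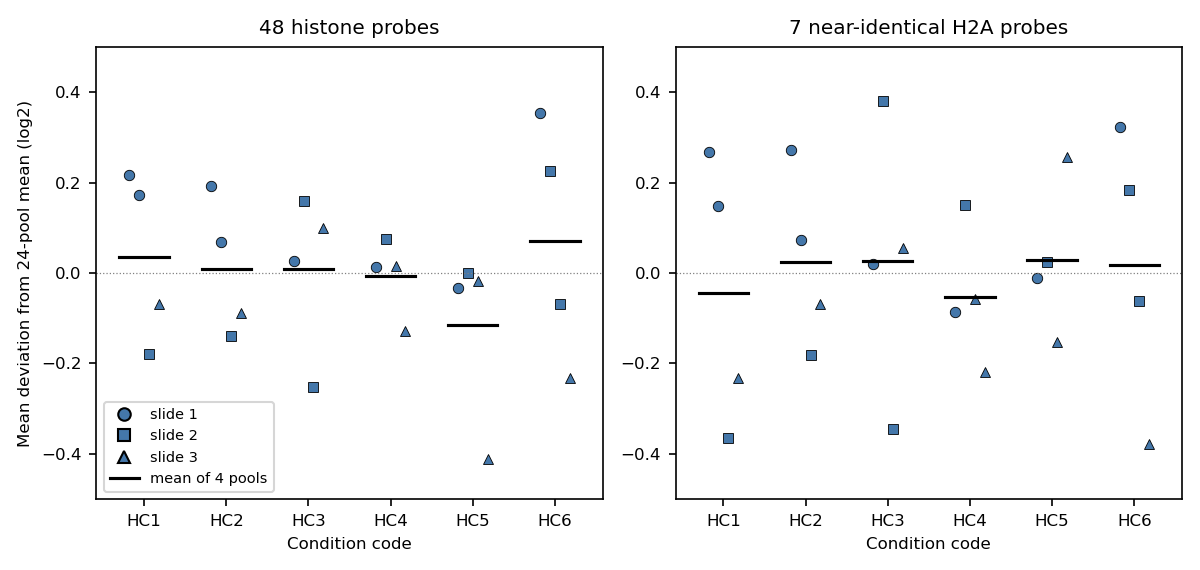
Histone score of each pool (log2, mean deviation from the 24-pool mean) for 48 histone probes on the left and the 7 near-identical H2A probes on the right, by code; bars are means of 4 pools and symbols give the slide. Pools of most codes lie on both sides of 0, and HC5 pool 4 is the lowest on the left (-0.41) but not on the right (0.26).

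The score also moved with technical measures of the arrays. The 24 arrays lie on 3 slides of 8, and the mean score was 0.13 ± 0.13 on slide 1, -0.022 ± 0.168 on slide 2 and -0.10 ± 0.16 on slide 3 (SD, n = 8 each). Against the 75th percentile of array signal, which is also what the values were scaled by, the score had r = -0.292 and Spearman rho = -0.503 over 24 pools, and r = -0.646 without the 2 pools farthest from the median percentile. Within slides r was -0.401, -0.916 and 0.424. For the 7 near-identical H2A probes it was -0.740 over 24 pools and between -0.939 and -0.634 within slides. With quantile normalization in place of the percentile the H2A value was -0.597. The part of array signal in the histone values was not tested.

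HC5 pool 4 stands apart as an array. Its 75th percentile was the lowest of the 24, at 47.3 intensity units against 57.8 to 128.4 in the other 23. It held the lowest value of 21 of the 48 histone probes (43.8%) and of 22.1% of all probes detected as widely. It also held the highest value of 1 histone probe (2.08%) and of 15.7% of all those probes. By class its mean deviation was -0.60 for H1, -0.15 for H2A, -0.69 for H2B, -0.60 for H3 and -0.23 for H4, while the 7 near-identical H2A probes were at 0.26. The counts and differences of HC5 below are given with and without it. Correlations between arrays over all probes ran from 0.949 to 0.986, and saturation was recorded on 0 spots. HC6 pool 4 held the lowest value of 14 of the 48 histone probes (29.2%), against 3.66% of all probes detected as widely.

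Across the 6 codes, no histone probe passed the test. The limma F-test called 0 of 58 members at an adjusted p of 0.05, and 0% of the 27074 probes tested. At an unadjusted p of 0.05 there were 5 members (8.62%), against 2.4% of all probes. Leaving out 1 pool gave between 4 members, as without HC5 pool 4, and 8, without HC6 pool 4. The share of all probes in those fits was not counted. The 5 of the full fit were both probes of Hist2h2be, Hist1h2bg, and 1 probe each of Hist3h2a and Hist3h2ba. All are of H2A and H2B genes, with adjusted p-values of 1. Over the 15 pairs of codes, 0 members and 0% of probes passed at an adjusted p of 0.05.

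In HC5, histone signals were lower than in the other codes for most members, but 0 of 58 members and 0% of all probes passed at an adjusted p of 0.05. The median member difference was -0.15 log2, with 43 of 58 members (74.1%) lower, against a median of -0.018 and 54.1% lower over all 27074 probes. At an unadjusted p of 0.05, 11 of 58 members (19%) were lower and 0 higher, against 3.45% lower and 2.54% higher of all probes. Without pool 4, 4 of 58 members were lower at that p, against 1.71% of all probes. Without pool 1 the count was 17, for which the share of all probes is not given here. The median over all 58 members was -0.046 without pool 4, with 41 lower. By class the lower members numbered 7 of 7 for H1, 7 of 15 for H2A, 12 of 15 for H2B, 7 of 10 for H3 and 10 of 11 for H4. Without pool 4 they numbered 7 of 7 for H1, 14 of 15 for H2A and 10 of 15 for H2B. For H3 they numbered 6 of 10 and for H4 4 of 11, also without pool 4. The H4 median then turned to 0.011 and the H2A median to -0.044. Of the 15 H2A members, 9 are probes of the H2A copy groups, with a mean r of 0.967 across the pools. The H2A counts are therefore not counts of separate genes, and these 9 also enter the counts over all 58 members. Copies enter the H4 counts as well. Counts by copy group were not made. The share of all probes lower without pool 4 is given below with the replication genes.

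Hist2h2be, an H2B gene of the Hist2 cluster that in mouse is known from olfactory neurons, had the smallest p of any member. At its probe with the hexamer, the log2 levels were -2.72, -1.81, -1.93 and -3.73 in HC5, against a lowest of -1.89, a median of -1.33 and a highest of -0.64 in the other 20 pools. Of the HC5 pools, 3 lay below all other pools and 1 inside their range. The difference was -1.25 ± 0.25 (SE), with a limma p of 6.24e-05 and an adjusted p of 0.305. The probe was well above background on 2 of 4 HC5 arrays and on 20 of 20 others. Without pool 4 the difference was -0.85, and within slides it was -1.46, -0.53 and -1.46. It was -0.31 with normexp background correction and quantile normalization and -0.43 in the authors' deposited log2 values.

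The other Hist2h2be probe lies 197 bases upstream on the same strand. Its log2 levels were -1.81, -2.17, -2.52 and -3.27 in HC5, against a lowest of -2.43, a median of -1.58 and a highest of -1.05 in the other 20. The groups overlap in 2 HC5 pools. It was not well above background on any HC5 array and was so on 17 of 20 others. With each HC5 value raised to at least the lowest level well above background on its array, HC5 was 1.45-fold lower. That figure carries no sampling error and is no lower limit under other processing. The adjusted p of the measured difference was 0.65. The measured difference of -0.89 was -0.62 without pool 4 and -0.23 with normexp background correction and quantile normalization. The 2 probes correlated at r = 0.830 over 24 pools.

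Hist1h1a, a linker histone gene, was at log2 levels of 3.12, 3.26, 3.16 and 2.42 in HC5, against a lowest of 3.18, a median of 3.42 and a highest of 3.77 in the other 20. Thus 3 HC5 pools lay below all others. The difference was -0.45 ± 0.13 (SE), with an adjusted p of 0.693, and it was -0.26 without pool 4. Hist1h2bg, an H2B gene, was at -1.86, -1.93, -2.28 and -2.08 in HC5, against -2.50, -1.44 and -0.73 as the lowest, median and highest of the other 20. All its HC5 values were below that median, the difference was -0.52 ± 0.18 (SE) with an adjusted p of 0.766, and leaving out pool 4 gave -0.51. Its probe was well above background on 1 HC5 array of 4 and on 16 of 20 others. The files list this probe for 0 RefSeq genes, while the Hist1h2bm probe is listed for 4 that include Hist1h2bg.

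Hist1h1d, Hist3h2a and Hist1h2ai were also among the 11. For Hist1h1d the difference was -0.43 log2, and -0.24 without pool 4. For Hist3h2a it was -0.44 at the downstream probe and -0.28 without pool 4, while the upstream probe, also well above background on all 24 arrays, had -0.20 (unadjusted p = 0.131) and -0.076 without pool 4. Hist1h2ai had 3.31, 3.08, 2.79 and 1.43 in HC5, against a lowest of 2.89 in the other 20. Its difference of -0.61 came to -0.21 without pool 4. The position of this probe, chr13:21902706-21902779, overlaps that of the Hist1h2ao probe, so its gene is uncertain. The mean log2 level of the Hist1h2ao probe was 10.23 in HC5 and between 10.14 and 10.23 in the other codes. The probes named Hist1h2bm, Hist1h3d, Hist2h3b and Hist1h4c, each listed for 3 or 4 genes, completed the 11 at unadjusted p under 0.05. Their differences lay between -0.35 and -0.20, and without pool 4 between -0.13 and -0.087. Within slides the median member difference of HC5 was -0.19 on slide 1, 0.035 on slide 2 and -0.23 on slide 3, which held pools 3 and 4.

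Markers of primitive endoderm had mostly small negative differences in HC5, which rest on 1 pool other than pool 4. All 5 list members (Gata4, Gata6, Pdgfra, Sox7 and Sox17) were lower, against 54.1% of all probes, with a median of -0.087, and for Gata4 and Sox7 the difference was -0.015. At an unadjusted p of 0.05, Gata6 and Pdgfra were lower, against 3.45% of all probes, and 0 were without pool 4 or at an adjusted p of 0.05. The list's score, its mean deviation from the 24-pool means, was 0.30 in HC5 pool 1, -0.0084 in pool 2, -0.79 in pool 3 and -0.0071 in pool 4. Pool 1 was thus the highest and pool 3 the lowest of the 24 pools. Without pool 3, 2 of 5 markers were lower and the median was 0.10, and without pool 4 all 5 were lower. Their summed level on the log2 scale was 5.05 to 5.38 in HC5, against ranges that began at 5.20 and ended at 5.64 in the other codes. For inner cell mass and epiblast 5 of 6 markers were lower with or without pool 4, and their summed levels were 5.43 to 5.85 in HC5 against 5.48 to 5.99. For trophectoderm 4 of 7 were lower, and 1 of 7 without pool 4. Their part in the histone values was not tested. In pools of whole embryos, fewer cells of a type and less RNA per cell cannot be told apart.

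**Figure D3:**
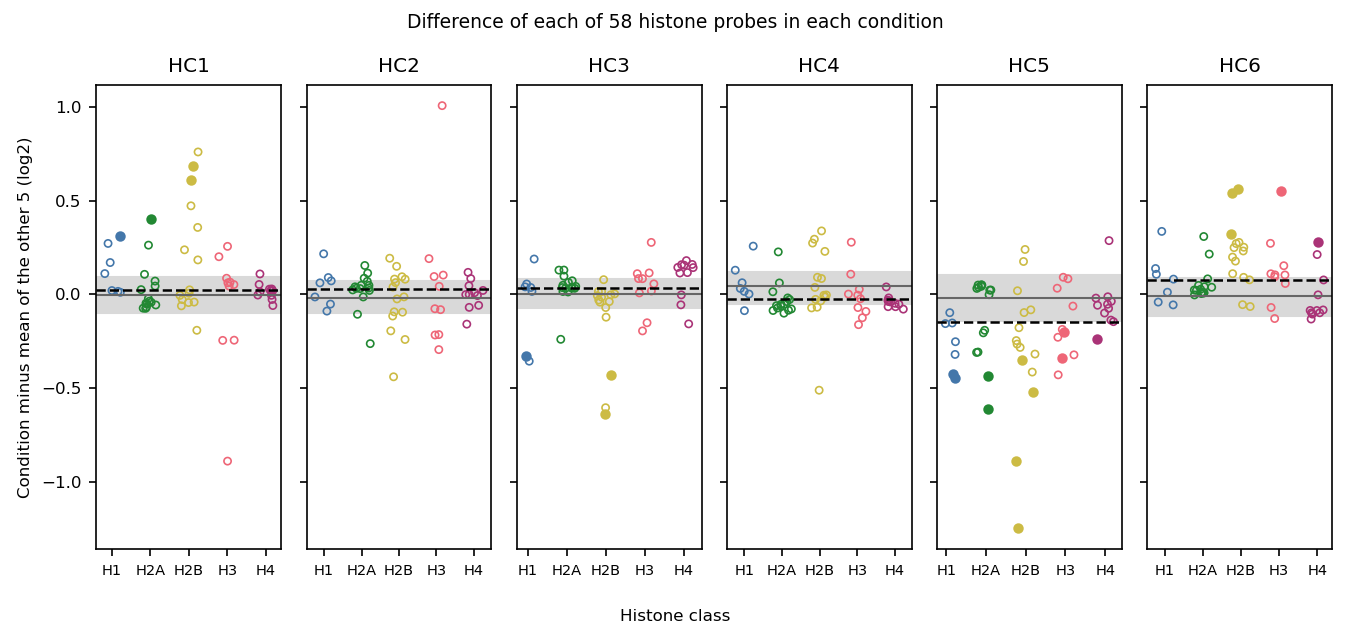
Difference of each of the 58 tested histone probes in each code from the mean of the other 5 (log2), by class; filled points have an unadjusted limma p under 0.05, the dashed line is the median of the 58, and the grey band and line are the middle 50% and median of all 27074 probes. In HC5 the dashed line lies at -0.15 and below the band, with 11 filled points, all lower.

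In HC6, whose pools held 20 embryos, most members were higher, and again 0 members and 0% of probes passed at an adjusted p of 0.05. The median member difference was 0.078 log2, with 15 of 58 members (25.9%) lower and 43 higher, against a median of -0.0096 and 52.8% lower over all probes. This rests on pool 1, without which the median was -0.044 and 32 of 58 members were lower. At an unadjusted p of 0.05, 5 members (8.62%) were higher, against 1.48% of all probes. Counted in either direction, members at that p numbered 2 without pool 1, 3 without pool 2, 9 without pool 3 and 8 without pool 4. The shares of all probes in these fits are not given here, so the counts describe the members only. The 5 were Hist1h3i, Hist1h2bg, Hist1h4i, Hist1h2bf and Hist2h2be. The Hist1h2bf probe is listed for 2 genes.

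Hist1h3i, an H3 gene read here at its stem-loop, had log2 levels of 1.81, 2.06, 1.514 and 1.13 in HC6, against a lowest of 0.42, a median of 1.13 and a highest of 1.505 in the other 20. Thus 3 HC6 pools were above all others, and pool 4 was at their median. The difference was 0.55 ± 0.16 (SE), a 1.47-fold higher signal, with an adjusted p of 0.999. Hist1h2bg had -1.34, -0.94, -1.59 and -0.73 in HC6, against -2.50, -1.59 and -0.94 as the lowest, median and highest of the other 20, a difference of 0.54 ± 0.18 (SE) with an adjusted p of 0.999. The Hist1h2bg difference was 0.16 with normexp background correction and quantile normalization. By class, 13 of 15 H2B members were higher in HC6 with a median of 0.23, and between 12 and 14 were when any 1 HC6 pool was left out. Of the H4 members 8 of 11 were lower, with a median of -0.085, but this rests on pool 4, without which 1 of 11 was lower and the median was 0.058. The mean deviation of the H4 probes was 0.22, 0.094, 0.0074 and -0.35 in HC6 pools 1 to 4, and Hist1h4i, the H4 member among the 5, was higher.

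In HC1, 0 members and 0% of probes passed at an adjusted p of 0.05, and 4 members (6.9%) were higher at an unadjusted p of 0.05, against 1.66% of all probes. Without pool 2 the count in either direction was 2, for which the share of all probes is not given here. Both Hist3h2ba probes were among the 4 of the full fit. At the probe with the hexamer the log2 levels were -0.024, 0.12, -0.61 and -0.20 in HC1, against a lowest of -1.93, a median of -0.82 and a highest of 0.099 in the other 20. The HC1 pools lay above that median, inside the range but for 1 pool. The difference was 0.68 ± 0.23 (SE), or 1.61-fold higher, with an adjusted p of 1, and it was 0.34 with normexp background correction and quantile normalization. At the other probe, 160 bases upstream, the difference was 0.61 ± 0.27 (SE), and it was 0.37 without pool 2 and 0.26 with that correction and normalization.

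Hist3h2a, the H2A gene of the same cluster on chromosome 11, had log2 levels of 1.81, 1.84, 1.42 and 1.99 at its downstream probe in HC1, against 0.61, 1.33 and 2.06 as the lowest, median and highest of the other 20. The difference was 0.40 ± 0.16 (SE) with an adjusted p of 1. At its upstream probe it was 0.026. The fourth of these members was Hist1h1t, with a difference of 0.31 log2 in HC1.

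In HC3, 0 members and 0% of probes passed at an adjusted p of 0.05, and 3 members (5.17%) were lower at an unadjusted p of 0.05, against 0.613% of all probes. Hist3h2ba at the hexamer probe had -0.90, -1.25, -1.93 and -1.04 in HC3, against a lowest of -1.62, a median of -0.62 and a highest of 0.12 in the other 20. The HC3 values were all below that median, with a difference of -0.64 ± 0.23 (SE) and an adjusted p of 1. The upstream Hist3h2ba probe had -1.31, -2.08, -1.42 and -0.83 in HC3, against a lowest of -2.19, a median of -1.34 and a highest of -0.079 in the other 20, and its difference was -0.12 (unadjusted p = 0.655). Hist1h2bg was at -0.43 ± 0.18 (SE) and Hist1h1t at -0.33 ± 0.15 (SE) relative to the other codes. Without pool 3 the count was 1, for which the share of all probes is not given here, and the Hist3h2ba difference at the hexamer probe was -0.42. Without pool 2 the Hist1h2bg difference was -0.25. With normexp background correction and quantile normalization these differences were -0.28 and -0.12. HC1 and HC3 are each part of the mean that the other was set against.

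In HC2 and HC4, 0 members and 0% of probes passed at an adjusted p of 0.05, and 0 members reached an unadjusted p of 0.05, against 2.42% of all probes in HC2 and 2.05% in HC4. The members of smallest p were Hist3h2ba in HC2, with a difference of -0.44 ± 0.23 (SE), and Hist1h2bg in HC4, with 0.34 ± 0.18 (SE). With normexp background correction and quantile normalization these were -0.20 and 0.13. The median member difference was 0.028 in HC2 and -0.027 in HC4. Over all 6 codes the 95% interval of the difference stayed within 2-fold either way for at least 91.4% of the 58 members in each. Changes smaller than a member's own interval could not be told from the spread between pools.

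**Figure D4:**
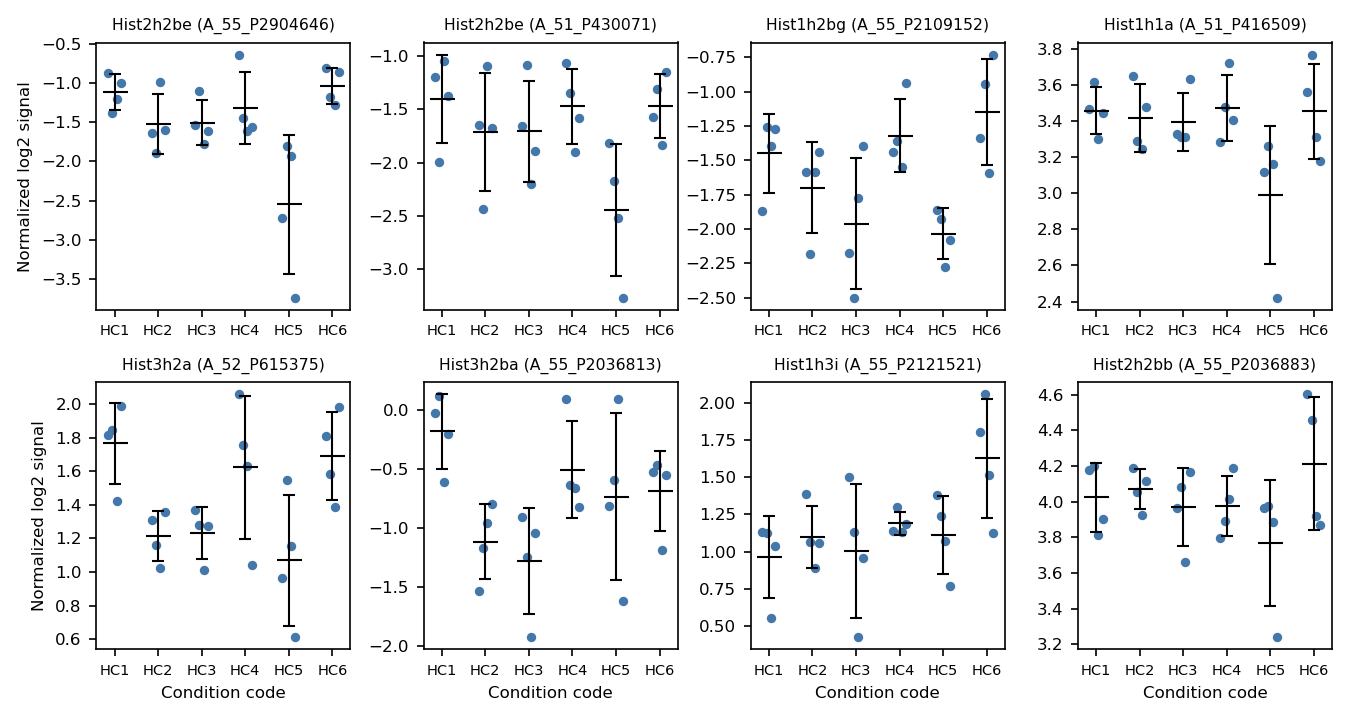
Normalized log2 signal of 8 named histone probes in each of the 24 pools by code, with the mean and SD of 4 pools; the y axes differ between panels. Both Hist2h2be probes are lowest in HC5, and Hist3h2ba is higher in HC1 than in HC2 and HC3 with overlap to the other codes.

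For some histone genes a second probe on the array gives another value of the same gene. Of the 11 pairs of neighbouring probes of a gene, those of Hist1h4d (234 bases apart, r = 0.965), Hist1h4k (216 bases, r = 0.956) and Hist1h2bb (123 bases, r = 0.853) agreed closely over the 24 pools. The pairs of Hist3h2a (567 bases, r = 0.322) and Hist1h1c (688 bases, r = -0.0924) did not, although all 4 probes were well above background on all 24 arrays. Each agreeing pair holds a probe that the files assign to 3 or more genes. For Hist3h2a and Hist1h1c the upstream probe is listed for 1 gene and the downstream probe for 0. The part of probe distance or of such shared probes was not tested.

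For Hist1h1c, a linker histone gene, the upstream probe followed the other members (mean r = 0.525) and the downstream one did not (r = -0.194). The log2 level of the upstream probe ran from 2.32 in HC5 pool 4 to 4.24 in HC6 pool 1. The downstream probe ran from 0.72 in HC6 pool 3 to 2.08 in HC6 pool 4. For Hist3h2a the mean r with other members was 0.587 at the upstream probe and 0.232 at the downstream one, and only the downstream probe reached an unadjusted p of 0.05 in the F-test (adjusted p = 1), while the difference between the probes was not tested.

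Hist2h2bb shows the widest separation. Its stem-loop probe had a log2 level of 4.00 ± 0.26 and was well above background on 24 of 24 arrays, whereas the probe with the hexamer, 8698 bases downstream, was so on 6 of 24 arrays, and the pair had r = 0.243. The probes of Hist1h1d, 2335 bases apart, were well above background on 24 arrays upstream and on 0 downstream (r = -0.0321). Neither downstream probe shows whether the gene's main mRNA varied.

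**Figure D5:**
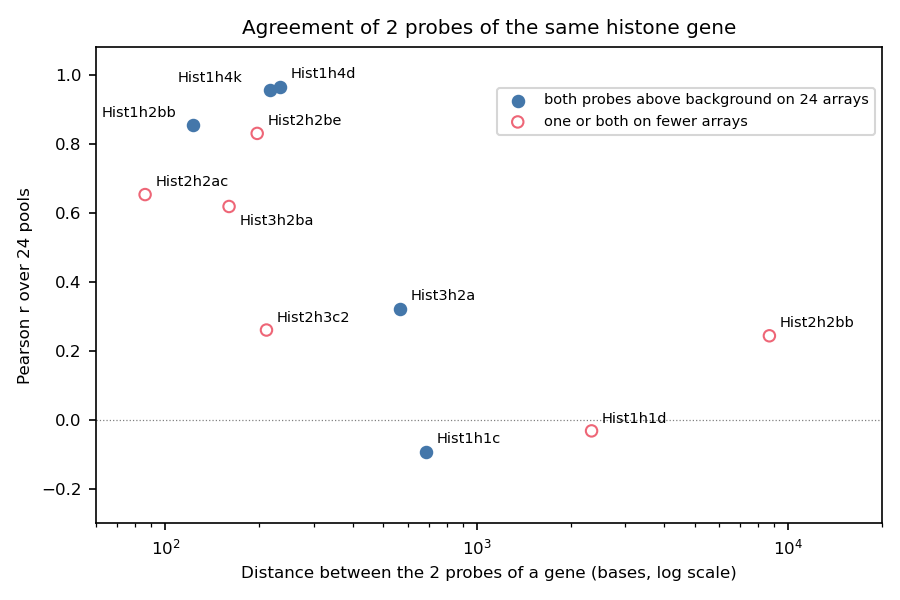
Pearson r over 24 pools between neighbouring probes of the same histone gene (y axis) against their distance in bases (log x axis), for 11 pairs; filled points have both probes well above background on all 24 arrays. The filled pairs within 234 bases lie above 0.85, and those at 567 and 688 bases lie below 0.33.

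The members also share promoter features. RefSeq promoter windows (build GRCm38.p6) were found for 49 of 56 genes, giving 50 windows, and the 250 bases before the start were searched on both strands. CCAAT was present in 84% of member windows, against 33.8% of all 32851. TATAAA was present in 48% against 12.4%, and the octamer ATTTGCAT, known from H2B promoters, in 26% against 1.6%. By class the octamer was found in 6 of 12 H2B windows and 7 of 17 H2A windows and in 0 of 6 H1, 0 of 7 H3 and 0 of 8 H4 windows. CCAAT was found in 6 of 6 H1, 17 of 17 H2A and 12 of 12 H2B windows but in 2 of 8 H4 windows. H2A and H2B genes often lie head to head and can share a window. A match is a description of letters and not of a bound factor.

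The 120 bases before the start of Hist1h2bg are shown as an example of an H2B promoter, with the octamer and TATAAA in capitals, whose first bases lie 59 and 43 bases before the start.
Hist1h2bg, GRCm38.p6 chr13:23571280-23571399, plus strand: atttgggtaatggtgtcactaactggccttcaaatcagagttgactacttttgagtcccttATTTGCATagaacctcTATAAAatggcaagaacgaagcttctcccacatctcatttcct

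Of the genes that make, process or handle histones, 0 of those tested passed the F-test or any single contrast at an adjusted p of 0.05. Of the 25 genes for transcription and processing of histone mRNA, all 25 were well above background on 24 arrays. Zfp473, a part of the U7 particle that cuts histone mRNA, had the smallest F-test p of this list and was at a log2 level of -0.11 ± 0.29 in HC5 against -0.55 ± 0.30 in the other 20 pools (SD). In HC5, 1 of the 25 was higher at an unadjusted p of 0.05 (Zfp473), against 2.54% of all probes, and 2 were lower (the cleavage factor Cstf2t and the uridylyltransferase Tut4), against 3.45%. Without pool 4 none of the 3 reached that p, and the Zfp473 difference of 0.44 was 0.31. Over the 6 codes the smallest adjusted p among these genes was 0.781, and their lowest pool score was that of HC5 pool 4 (-0.18).

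Of the replacement and germ cell histone variants, which are made outside replication as well, 11 of 15 on the array were tested and 0 passed. Those well above background on 0 or 1 array were H1f0, H1fnt, Hils1 and H2al2a. H2afx, the H2A variant that marks DNA breaks, had the list's only unadjusted F-test p under 0.05 (0.0436, adjusted p = 1). Its log2 level was 5.38 ± 0.17 in HC1, against 5.09 ± 0.14 in the other 20 pools (SD), a difference of 0.28 with an adjusted p of 1. In HC2 the difference was -0.19, and in HC5 it was -0.088, or -0.070 without pool 4. The list's score in HC5 pool 4 was 0.091, where the clustered genes scored -0.41. Of the histone chaperones 21 of 23 were tested, all but Asf1a and Npm2, each well above background on 1 array, and of the genes for DNA replication in S phase 24 of 25, with 0 called in either list. In HC5, 20 of 24 replication genes were lower, with a median of -0.031 log2, against 54.1% of all probes, and 16 of 24 were without pool 4, against 48.1%. Their scores in HC5 pools 1 to 4 were -0.024, 0.016, -0.017 and -0.16.

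As for the labelled stage, all 7 trophectoderm and all 5 primitive endoderm markers, and 5 of 6 inner cell mass and epiblast markers, were well above background on 24 arrays. Of markers of other sources, 2 of 10 for cumulus and granulosa cells, 2 of 8 for oocytes, 0 of 4 for oviduct and uterine epithelium and 1 of 5 for blood cells were above background on all 24.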

How the data were processed

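Processed spot intensity values came from the deposited scanner files (Agilent Feature Extraction 10.10.1.1, which the submitters' processing notes name). Per the file headers they are background subtracted within an array and not normalized between arrays. A deposited table of the authors' log2 values was an alternative, with 58 members among 27101 probes; its exact normalization is not given in the sources used here. Control spots and outlier flags (3270 spot values) were left out, log2 signals were averaged per probe, and each array's 75th percentile was subtracted. Probes that exceeded background clearly on 4 or more of 24 arrays, with 2 or more values per code, were fitted with limma 3.58.1 in R 4.3.3 (lmFit, eBayes, 6 code means, no covariate), with Benjamini-Hochberg adjustment at 0.05 over all 27074 probes. Python 3.11.15 handled sequences. The code was tested on simulated arrays. The members, lists and named genes were chosen with earlier results of these data known. Named genes were, per class, the 2 of smallest F-test p and 2 most widely detected; per code, the 3 of smallest p; the 5 most and 3 least variable; and the 4 genes whose probes differ most in detection. Others named, such as the remaining HC5 members at unadjusted p under 0.05, the likeness extremes, Hist1h2aa, Hist1h2ba and Hist4h4, were chosen after their values were seen. Alternatives changed background correction, normalization, filter, unit, slide block, replicate block, array weights and pools. The number of arrays limits precision.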

Additional observations from a re-analysis of the deposited data

Results flagged for a closer look

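For 28 named probes and the histone score, each group of 4 pools was searched for a pool far from the other 3, and 11 of 174 groups had one; chance alone gives about 1 in 20 groups. HC5 pool 4 stood apart low in the histone score (-0.41 log2, the next pool of HC5 at -0.034), in the stem-loop probe of Hist2h2bb (3.24, next 3.89) and in Hist1h4i (1.39, next 2.03). HC3 pool 4 stood apart high in Hist1h1a (3.63, next 3.33), Hist1h3g (0.53, next 0.21) and Hist1h3f (1.92, next 1.51). HC1 pool 3 stood apart low in Hist1h3i (0.56, next 1.04) and in the downstream Hist2h2bb probe (-2.97, next -1.90). The other 3 were HC6 pool 3, low in Hist3h2ba at the hexamer probe (-1.19, next -0.55), HC2 pool 2, low in the downstream Hist1h1c probe (0.79, next 1.39), and HC4 pool 3, high in Hist1h1d (3.94, next 3.49).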

How the results depend on the processing

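The count of histone probes called was 0 in the F-test, in each of the 6 codes and over the 15 pairs under all 11 alternatives and all 24 fits that left out 1 pool. Over the 11 alternatives the median member difference of HC5 stayed between -0.15 and -0.056 and that of HC6 between 0.022 and 0.087. Leaving out 1 pool, it lay between -0.22 and -0.046 in HC5, but between -0.044 and 0.15 in HC6, where it changed sign. It also changed sign in HC1 (-0.034 to 0.078), HC2 (-0.038 to 0.079), HC3 (-0.028 to 0.13) and HC4 (-0.054 to 0.029). The score's range over pools, 0.765 log2, was 0.633 to 0.765 under the 7 settings that change the values or members. Over the 58 tested probes, a choice made after the data were seen, it was 0.836, and 0.58 with normexp and quantile normalization and 0.613 in the authors' deposited values. Counts by class and list without each pool were also added after the data were seen. Most member counts at an unadjusted p with 1 pool left out stand without the share of all probes in that fit. The Hist2h2be difference at the hexamer probe in HC5 was between -1.36 and -0.31, with an adjusted p between 0.257 and 0.871, and between -1.49 and -0.85 when a pool was left out, with an adjusted p of at least 0.102. Members at an unadjusted p of 0.05 in HC5, counted in either direction, numbered 11 in the reported fit, where all were lower. They numbered 4 with array weights, which gave HC5 pool 4 the lowest weight (0.254), and 17 without HC5 pool 1. The share of all probes with array weights or without pool 1 is not given here. Over all tested probes, the mean correlation of deviations between pools of the same replicate number was 0.0218, from -0.274 to 0.304. Between pools of other numbers it was -0.0062. All pools numbered 1 lie on slide 1 and all numbered 4 on slide 3, so number and slide are partly the same. Whether the number pairs the pools for the histone probes was not tested. The replicate block called 0 members, and 16 members in HC5 reached an unadjusted p of 0.05 in either direction. The share of all probes in that fit is not given here. Signal over background limits both Hist2h2be probes and Hist1h2bg, which were not well above background on every array.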
